A study of Mus musculus with 9 samples.

Results

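The ligands *Tgfb1*, *Tgfb2* and *Tgfb3*, the receptors *Tgfbr1*, *Tgfbr2* and *Tgfbr3*, and the Smads *Smad3*, *Smad6* and *Smad7* were followed in mouse lung grafts. Their members on the array were all probes that were not controls and whose accession belonged to 1 of these 9 genes. Of 56601 probes tested, 14 were found, and they covered all 9 genes of the 22909 genes named on the array. The matching of probes used no measured value, but the 9 genes were chosen with earlier results of these data known. *Tgfb1*, *Tgfb2*, *Tgfbr1*, *Smad3* and *Smad7* had a pair of probes each, and the other genes had 1 probe.

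Transforming growth factor beta is a secreted cytokine family that restrains immune cells and drives fibroblasts to make matrix, and in the lung it is best known for its part in fibrosis. A ligand binds the type II receptor, which activates the type I receptor, and this kinase phosphorylates Smad2 and Smad3, which enter the nucleus with Smad4 and turn on target genes. The related bone morphogenetic proteins (BMPs) signal through Smad1, Smad5 and Smad9. The inhibitory Smads, Smad6 and Smad7, are induced by these pathways and switch them off again, Smad6 mainly against BMP signals and Smad7 against both.

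Left lungs of male mice were compared in 3 groups of 3 animals, all harvested at day 21 after surgery, with 1 animal on each array. Histology and RNA were taken from different parts of a lung. In both graft groups a left lung of a C57BL/10 donor was placed orthotopically into a C57BL/6 recipient of 8 to 12 weeks, strains that are mismatched for minor histocompatibility antigens. OB denotes grafts in which airway fibrosis (obliterative bronchiolitis) was diagnosed by histology, and non-OB denotes grafts without it. The sham mice, also of 8 to 12 weeks, had a thoracotomy only and kept their own lung. Surgery on the lung vessels and bronchus was therefore confined to the grafts. The sample labels name the same donor and recipient strain for sham lungs as for grafts. In the study's supplement, however, sham 1 is a C57BL/10 lung and sham 2 and sham 3 are C57BL/6 lungs. A probe of *Tlr4*, a receptor for bacterial lipopolysaccharide, had a log2 intensity of 2.16 in sham 1, not well above background, against 8.63 and 8.60 in sham 2 and sham 3 and 7.21 to 7.77 in the grafts. Sham 1 was therefore left out, or used alone as the control, as alternatives.

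The arrays were 1-colour arrays, on which the brightness of a probe stands for the amount of its transcript, and all values are log2 of the intensity after each array was scaled to a common trimmed mean. From 58.6% to 69.6% of the spots of an array were well above background, and none was saturated. Each of the 14 probes stood well above background in every lung. Groups were compared with limma, a linear model fitted across all probes, and a difference passed the test at a Benjamini-Hochberg adjusted p under 0.05 over all 56601 probes. The arrays lay on 4 slides, of which only slide 1 held both grafts and sham lungs (OB 1, non-OB 1, sham 1 and sham 2). The lung markers *Sftpc* and *Sftpb* (alveolar type 2 cells), *Ager* (alveolar type 1 cells) and *Scgb1a1* (airway club cells) were well above background on all 9 arrays.

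The inhibitory Smads and the co-receptor *Tgfbr3* were lower in OB grafts than in sham lungs, and no ligand, signalling receptor or *Smad3* passed the test. *Smad6* was 5.85-fold lower, *Smad7* 2.65-fold lower and *Tgfbr3* 2.24-fold lower in OB. In non-OB grafts *Smad6* was 3.70-fold and *Smad7* 2.06-fold lower than in sham. Of the 14 probes, 4 were lower and 0 higher in OB than in sham, where 3.08% of all probes tested were lower and 2.94% higher. In non-OB against sham, 2 of the 14 were lower and 0 higher, against 0.82% and 1.88% of all probes. Between OB and non-OB, 0 of the 14 probes passed in either direction by limma, and among all probes 0.0% were higher and 0.0% lower. At an unadjusted p under 0.05, 1 of the 14, *Smad6*, differed between OB and non-OB, where 1.95% of all probes did. Both comparisons with sham share the same 3 sham lungs. The median log2 change of the 9 genes, taken by the brightest probe of each, was -0.17 in OB and -0.11 in non-OB against sham, beside 0.08 and 0.13 over all probes. None of the 9 genes was dim, and with dim probes left out the median over all probes was -0.11 and -0.06.

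**Figure D1:**
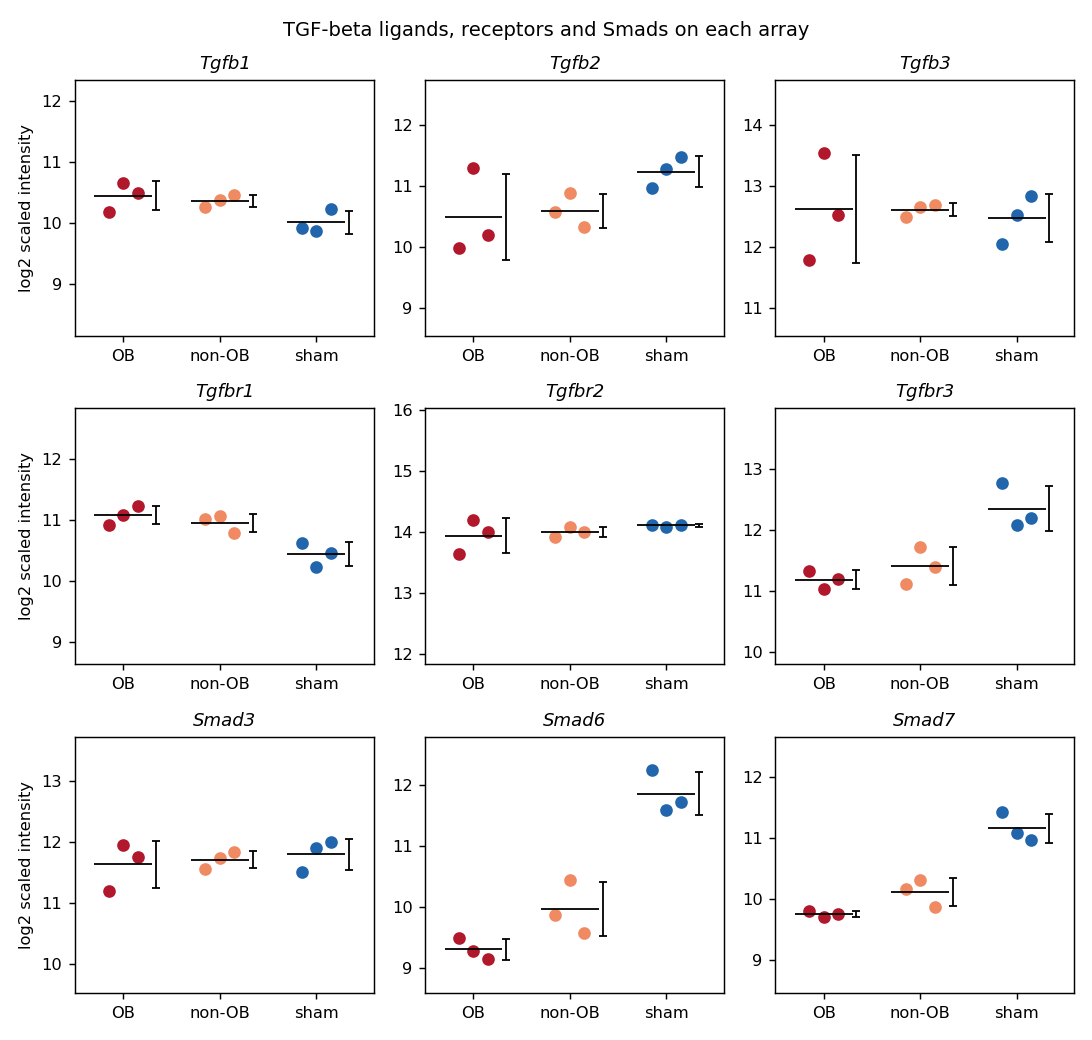
Log2 scaled intensity of the 9 genes (brightest probe of each) on every array, by group. Each point is 1 lung, horizontal lines are means and bars are 1 SD (n = 3), and all panels span the same log2 range. *Smad6* in the 6 grafts lay between 9.14 and 10.45, below the 3 sham lungs at 11.59 to 12.25, whereas *Tgfbr2* lay between 13.63 and 14.19 in all 9 lungs.

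**Figure D2:**
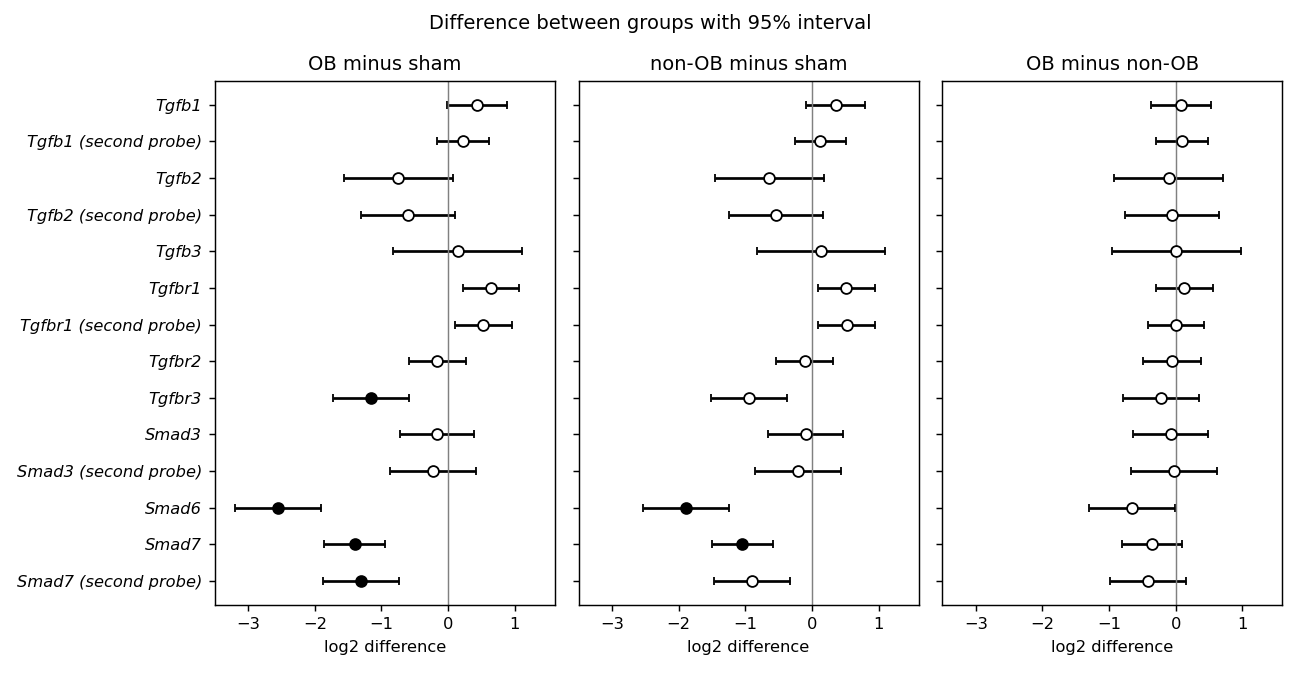
Log2 difference between groups for the 14 probes, with its 95% interval from limma, in OB minus sham, non-OB minus sham and OB minus non-OB. Filled points passed the test at an adjusted p under 0.05. The filled points all lie below 0 and belong to *Smad6*, *Smad7* and *Tgfbr3* in OB minus sham, and to *Smad6* and *Smad7* in non-OB minus sham.

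*Smad6*, which binds activated type I receptors and competes with Smad4 for activated Smad1, was lowest in the OB grafts. The log2 intensity was 9.49, 9.29 and 9.14 in the OB grafts, 9.87, 10.45 and 9.58 in the non-OB grafts and 12.25, 11.59 and 11.72 in the sham lungs. The 3 groups did not overlap, with OB lowest, non-OB between and sham highest. The difference from sham was -2.55 on the log2 scale in OB (SE 0.28, 95% interval -3.19 to -1.90, adjusted p = 0.00335 from limma) and -1.89 in non-OB (SE 0.28, -2.53 to -1.25, adjusted p = 0.0157). OB was 0.66 below non-OB on the log2 scale (interval -1.30 to -0.01, unadjusted p = 0.0462 and adjusted p = 1.00 from limma), and the 3 slides with both kinds of graft gave -0.37, -0.29 and -1.31. On slide 1 the difference from sham was -2.43 for OB 1 and -2.06 for non-OB 1. The call in OB held in 21 of 23 alternatives (adjusted p from 0.000401 to 0.0715). It was lost with slide as a fixed block (-2.57, adjusted p = 0.0715) and with sham 1 as the only control (-2.95, adjusted p = 0.0564). In non-OB the call held in 14 of 23 alternatives at an adjusted p under 0.05. It was lost when any 1 sham lung was left out (-2.02 to -1.69, adjusted p from 0.0514 to 0.0565) or when non-OB 1 was left out (-1.84, adjusted p = 0.0648). The fixed slide block gave -1.92 (adjusted p = 0.156) and sham 1 alone -2.29 (adjusted p = 0.134).

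*Smad7*, which recruits ubiquitin ligases to the activated receptor and is itself a TGF-beta target, followed the same order of groups. Its brighter probe read 9.81, 9.71 and 9.75 in OB, 10.17, 10.32 and 9.87 in non-OB and 11.42, 11.09 and 10.97 in sham. Again the groups did not overlap, and the OB grafts were close to each other (SD 0.05, n = 3). The log2 difference from sham was -1.40 in OB (SE 0.20, interval -1.86 to -0.95, adjusted p = 0.00767 from limma) and -1.04 in non-OB (SE 0.20, -1.49 to -0.59, adjusted p = 0.0359). The second probe read 6.38, 6.88 and 6.39 in OB, 6.94, 6.98 and 6.96 in non-OB and 8.33, 7.63 and 7.61 in sham, again without overlap. It passed the test in OB (-1.31, adjusted p = 0.0224 from limma) but not in non-OB (-0.90, adjusted p = 0.116). Between OB and non-OB the brighter probe differed by -0.36 (interval -0.81 to 0.09, unadjusted p = 0.103 and adjusted p = 1.00 from limma). At an adjusted p under 0.05, the OB call held in 21 of 23 alternatives and the non-OB call in 7 of 23. Leaving out any 1 array other than non-OB 2 ended the non-OB call, with values from -1.14 to -0.91 and adjusted p up to 0.134 (-0.91, adjusted p = 0.118 without sham 1). The fixed slide block gave -1.09 (adjusted p = 0.158) and sham 1 alone -1.31 (adjusted p = 0.233). On slide 1 the difference from sham was -1.45 for OB 1 and -1.09 for non-OB 1. The OB call was lost with slide as a fixed block (-1.45, adjusted p = 0.0729) and with sham 1 as the only control (-1.67, adjusted p = 0.0963).

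Sequence before the annotated start was available for *Smad6* and is shown because this gene fell most. It is given beside that of *Tgfbr1*, which had the opposite sign in both comparisons with sham. Both are the 250 bases before the start in RefSeq's GRCm38.p6 annotation, 5′ to 3′ on the gene's strand, at chr9:64022060-64022309 (minus strand) for *Smad6* and chr4:47352972-47353221 (plus strand, the first of its annotated starts) for *Tgfbr1*. Capitals mark GGGCGG, the core of the Sp1 box, on either strand (CCGCCC on the other).
Smad6: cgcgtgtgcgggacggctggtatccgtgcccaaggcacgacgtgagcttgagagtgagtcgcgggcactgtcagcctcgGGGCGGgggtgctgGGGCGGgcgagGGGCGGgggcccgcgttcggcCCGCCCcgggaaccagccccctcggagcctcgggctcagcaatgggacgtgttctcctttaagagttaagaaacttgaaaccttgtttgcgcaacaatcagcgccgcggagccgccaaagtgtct
Tgfbr1: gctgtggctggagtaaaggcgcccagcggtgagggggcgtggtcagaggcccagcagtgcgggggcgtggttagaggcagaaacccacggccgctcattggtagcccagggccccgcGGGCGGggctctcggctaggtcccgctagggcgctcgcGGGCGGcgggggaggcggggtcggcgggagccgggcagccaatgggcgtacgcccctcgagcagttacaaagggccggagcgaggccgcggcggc

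The *Smad6* window held 4 Sp1 boxes, a number reached by 4.09% of 32851 mouse promoters of the same length, and 66.8% of its bases were G or C. The *Tgfbr1* window held 2, as 16.7% of promoters did or exceeded, with 74.8% G or C. At least 1 Sp1 box occurred in 32.7% of all promoters, whose median GC content was 52.4%. The Smad-binding letters CAGAC (or GTCTG on the other strand) were found in neither window, though in 42.2% of all promoters. The palindrome GTCTAGAC was also in neither (0.167% of all promoters). The GC-rich Smad element GGCGCC occurred once in *Tgfbr1* and not in *Smad6* (9.59% of all promoters), and it overlapped none of the Sp1 boxes. The window before the other annotated start of *Tgfbr1* held 0 Sp1 boxes and CAGAC at 1 place. *Tgfb1*, which did not pass the test, held 5 Sp1 boxes, a number reached by 1.93% of all promoters, and *Smad3* held 2. *Tgfb2* held CAGAC at 2 places and *Tgfbr2* at 1. These counts describe letters in a short window and say nothing of binding.

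The receptors did not move together. *Tgfbr3*, or betaglycan, is a co-receptor without a kinase that presents ligand, above all Tgfb2, to the type II receptor. It read 11.34, 11.03 and 11.19 in OB, 11.11, 11.72 and 11.40 in non-OB and 12.77, 12.08 and 12.20 in sham. All 6 grafts lay below all 3 sham lungs, and the graft groups overlapped. The log2 difference from sham was -1.16 in OB (SE 0.25, interval -1.73 to -0.59, adjusted p = 0.0336 from limma) and -0.94 in non-OB (SE 0.25, -1.51 to -0.37, adjusted p = 0.103). At an adjusted p under 0.05, the OB call held in only 9 of 23 alternatives. It was lost when any 1 OB graft or any 1 sham lung was left out, with values from -1.30 to -0.96 and adjusted p from 0.0618 to 0.108, and when non-OB 3 was left out of the shared spread (adjusted p = 0.0510). It was also lost with the fixed slide block (-1.31, adjusted p = 0.151) and with sham 1 as the only control (-1.58, adjusted p = 0.141), and slide 1 gave -1.09 for OB 1 and -1.31 for non-OB 1. In non-OB the call was gained with dim probes left out (adjusted p = 0.0494) and with a trended spread (adjusted p = 0.0384). The sign against sham was the same in all alternatives of both comparisons.

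*Tgfbr1*, the type I receptor kinase, read 10.93, 11.09 and 11.23 in OB, 11.02, 11.07 and 10.78 in non-OB and 10.63, 10.24 and 10.45 in sham. All 6 grafts lay above the 3 sham lungs, as they did for the second probe of the gene (8.10 to 8.51 against 7.72 to 7.93). The log2 difference was 0.64 in OB (SE 0.19, interval 0.22 to 1.07, adjusted p = 0.0898 from limma) and 0.52 in non-OB (adjusted p = 0.217), so neither passed the test. The OB difference passed under quantile normalization, with or without normexp background correction, with dim probes left out and with a trended spread (0.64 to 0.75, adjusted p from 0.0311 to 0.0426). *Tgfbr2*, the type II receptor kinase that ligands bind first, read 13.63, 14.19 and 14.00 in OB, 13.92, 14.08 and 13.99 in non-OB and 14.12, 14.08 and 14.11 in sham. Its log2 difference from sham was -0.16 in OB (interval -0.59 to 0.26) and -0.11 in non-OB (-0.54 to 0.32), and the sham lungs had a SD of 0.02 (n = 3). Both intervals stayed above the OB estimates of *Smad6*, *Smad7* and *Tgfbr3*, although the interval of *Tgfbr3* in OB ran up to -0.59. A difference between the genes was not tested. With slide as a fixed block *Tgfbr2* differed from sham by -0.35 in OB and -0.30 in non-OB. On slide 1 the difference was -0.47 for OB 1 and -0.18 for non-OB 1.

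None of the 3 ligands passed the test. *Tgfb1*, an isoform made by leukocytes among other cells, read 10.19, 10.65 and 10.49 in OB, 10.26, 10.38 and 10.45 in non-OB and 9.92, 9.87 and 10.23 in sham. OB 1 lay below sham 3, and the non-OB grafts lay just above all sham lungs. The log2 difference was 0.43 in OB (interval -0.01 to 0.88, adjusted p = 0.266 from limma) and 0.35 in non-OB (-0.09 to 0.80, adjusted p = 0.368), and it was 0.22 and 0.13 by the second probe. *Tgfb1* in OB passed only with normexp and quantile normalization (0.53, adjusted p = 0.0368). *Tgfb2*, an isoform of epithelial and mesenchymal cells, had the opposite sign. It read 10.00, 11.30 and 10.20 in OB, 10.57, 10.90 and 10.34 in non-OB and 10.97, 11.28 and 11.48 in sham. OB 2 lay among the sham lungs, the other grafts below them, and the difference was -0.75 in OB (interval -1.56 to 0.07, adjusted p = 0.298 from limma) and -0.64 in non-OB (-1.45 to 0.18, adjusted p = 0.368). The second probe gave -0.60 and -0.54.

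*Tgfb3*, the third isoform, read 11.79, 13.54 and 12.52 in OB, 12.48, 12.66 and 12.69 in non-OB and 12.05, 12.53 and 12.84 in sham. The OB grafts alone spanned the range of all other lungs, with a SD of 0.88, and the log2 difference from sham was 0.15 in OB (interval -0.82 to 1.11) and 0.14 in non-OB (-0.83 to 1.10). *Smad3*, the Smad that receptors activate, read 11.19, 11.94 and 11.76 in OB, 11.55, 11.73 and 11.83 in non-OB and 11.51, 11.90 and 11.99 in sham. Its groups overlapped, with differences from sham of -0.17 (interval -0.73 to 0.39) and -0.09 (-0.65 to 0.47), and -0.23 and -0.21 by the second probe. OB 1 had the lowest value of the 9 lungs for *Tgfb2*, *Tgfb3*, *Tgfbr2* and *Smad3*, and OB 2 the highest for *Tgfb1*, *Tgfb3* and *Tgfbr2*. The scaled intensity over the whole array had its lowest median in OB 1 (72.5) and a high one in OB 2 (109.6). The highest was that of non-OB 3 (123.9). The part of this array-wide shift in the values of these genes was not tested.

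Counted by overlap alone, 7 of the 14 probes separated OB from sham completely, beside 36.2% of all probes, and 10 separated non-OB from sham, beside 28.8%. OB and non-OB were separated by 3 of the 14, *Smad6* and both probes of *Smad7*, beside 3.95% of all probes, with OB lower in each. For the 9 genes the largest log2 difference between OB and non-OB was that of *Smad6*, and the interval of *Tgfb3* was the widest (-0.96 to 0.98).

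The rest of the pathway was read from gene lists. Among 11 co-receptors and other type I and type II receptors, 4 fell and 0 rose in OB against sham, with a median log2 change of -0.88. *Bmpr2*, the type II receptor for BMPs whose loss causes pulmonary hypertension, was 13.09 ± 0.29 in OB and 14.90 ± 0.17 in sham (SD, n = 3), a change of -1.82 (adjusted p = 0.00937 from limma). *Eng* (endoglin), an endothelial co-receptor, fell by 1.71 (adjusted p = 0.00895) and *Acvrl1* (ALK1), its type I partner in endothelium, by 1.54 (adjusted p = 0.0113). *Bmpr1b*, a type I BMP receptor, fell by 1.83 (adjusted p = 0.00822). In non-OB 3 of the 11 fell and 0 rose, *Eng* (-1.58, adjusted p = 0.0203 from limma), *Bmpr2* (-1.49, adjusted p = 0.0319) and *Bmpr1b* (-1.48, adjusted p = 0.0295), with a median of -0.59.

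Among 20 BMP, activin and GDF ligands and antagonists, 2 fell and 1 rose in OB, with a median of -0.13. *Bmp6*, a BMP known for control of iron uptake, was 9.28 ± 0.21 in OB against 11.75 ± 0.11 in sham (SD, n = 3), a change of -2.47 (adjusted p = 0.00325 from limma), close in size to that of *Smad6*. *Fstl3*, which binds activin, fell by 0.76 (adjusted p = 0.0357). *Gdf15*, a stress-induced member of the family, rose by 1.63 (adjusted p = 0.0330). In non-OB *Bmp6* fell (-2.12, adjusted p = 0.00910 from limma) and *Gdf15* rose (1.84, adjusted p = 0.0357), 1 gene in each direction, with a median of -0.14.

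Among 13 other Smads and nuclear partners, 3 fell and 1 rose in OB, with a median of -0.38. *Smad9*, a Smad of the BMP branch, fell by 1.94 (adjusted p = 0.0262 from limma). *Smurf2*, a ubiquitin ligase that Smad7 brings to the receptor, fell by 1.46 (adjusted p = 0.00912), and *Zfyve9* (SARA), which anchors Smad2 and Smad3 near the receptor, by 1.01 (adjusted p = 0.0333). *Tgif1*, a repressor that binds Smads, rose by 0.74 (adjusted p = 0.0484). In non-OB 2 fell and 0 rose, *Smad9* (-1.93, adjusted p = 0.0422 from limma) and *Smurf2* (-1.23, adjusted p = 0.0282), with a median of -0.19. Of 14 genes of ligand latency and activation, 0 fell in either comparison and 1 passed as higher in both, the integrin *Itgb8*. On none of the 9 arrays did its probe reach a signal well above background, so no fold is given, and the median of the list was -0.28 in OB and -0.16 in non-OB.

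TGF-beta target genes showed no common direction. Of 30 targets, 3 fell and 1 rose in OB, with a median of -0.14, and 1 fell and 1 rose in non-OB, with a median of 0.21. *Tgfbi*, a matrix protein named for its induction by TGF-beta, rose by 1.27 in OB (adjusted p = 0.0337 from limma) and by 1.35 in non-OB (adjusted p = 0.0435). The 3 that fell in OB were *Smad7* itself and *Acta2* (-1.64, adjusted p = 0.0111) and *Tagln* (-1.50, adjusted p = 0.00762), which are also contractile genes of smooth muscle, and in non-OB it was *Smad7* alone. Between OB and non-OB, 0 genes of these lists passed the test by limma. At an unadjusted p under 0.05 from limma, 2 of 30 targets, 1 of 14 latency genes and 1 of 20 BMP, activin or GDF genes were lower in OB, and 0 were higher. Of all 56601 probes, 795 were lower and 307 higher in OB at the same threshold.

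**Figure D3:**
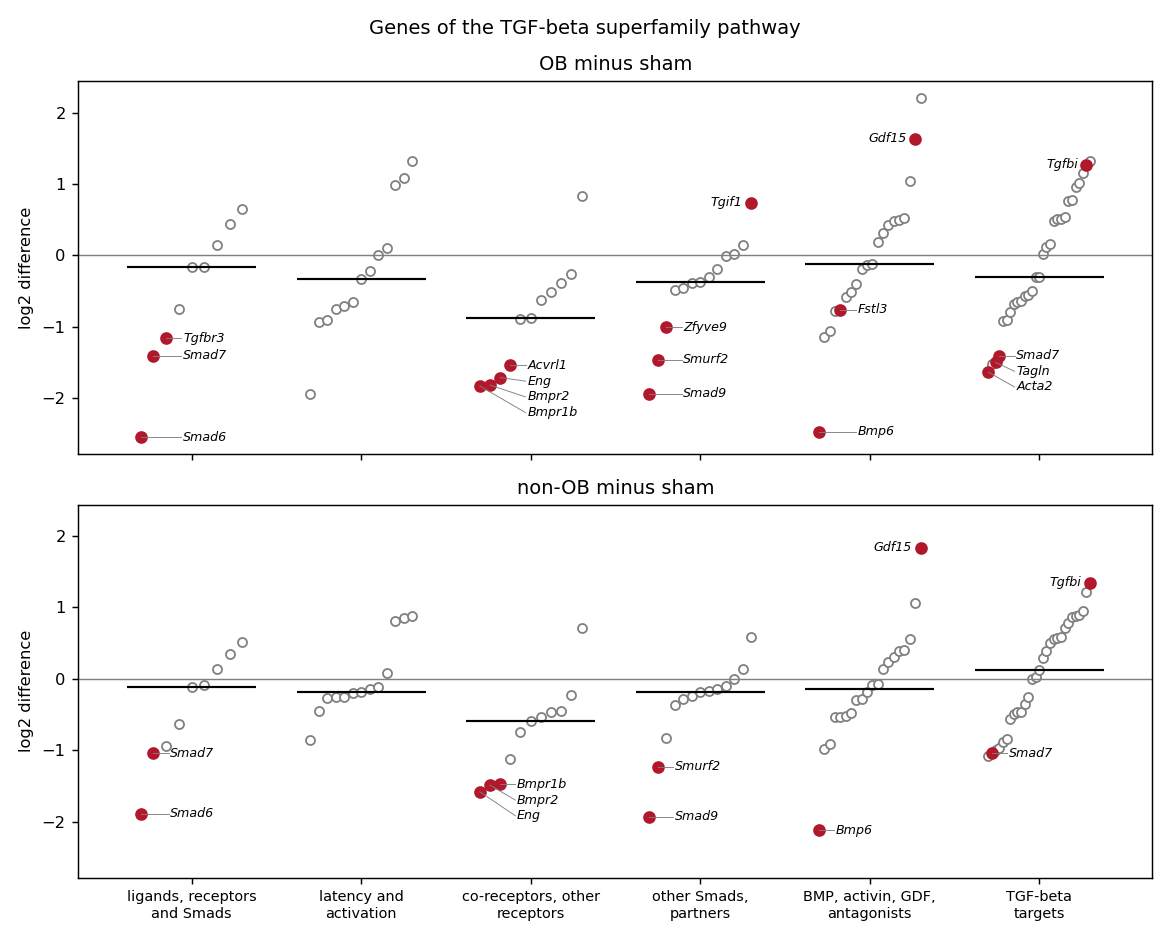
Log2 difference of each gene in 6 lists of the TGF-beta superfamily pathway, OB minus sham (upper) and non-OB minus sham (lower), for genes well above background on all 9 arrays. Filled, named points passed the test at an adjusted p under 0.05, open points did not, and horizontal lines are medians of the plotted genes. *Smad6* and *Bmp6* were the lowest points of OB minus sham at -2.55 and -2.47.

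Markers of several cell types moved with the genes that fell. Of 18 vascular endothelial markers, 14 fell and 0 rose in OB against sham (median -1.34), and 3 fell and 0 rose in non-OB (median -0.93). *Kdr*, the main VEGF receptor, changed by -2.23 in OB (adjusted p = 0.00300 from limma) and -1.77 in non-OB (adjusted p = 0.0106), and *Cdh5* (VE-cadherin) changed by -1.48 (adjusted p = 0.00573) and -1.01 (adjusted p = 0.0359). The change of *Pecam1* was -0.92 in OB and -0.57 in non-OB, and it passed the test in neither. The mean log2 level of the 18 markers ranged from 12.32 to 12.41 in OB, from 12.60 to 13.07 in non-OB and from 13.62 to 13.92 in sham, the order of groups seen for *Smad6*, *Smad7* and *Tgfbr3*. Sham 1 was highest of the 9 lungs for this mean and for all 3 genes, and non-OB 2 was highest of the grafts for all 4. The mean of the alveolar type 1 markers listed below had the same highest lungs and the same order of groups. It ranged from 13.44 to 13.75 in OB, from 13.82 to 14.14 in non-OB and from 14.70 to 14.86 in sham. In bulk lung tissue, a changed mix of cells of any of these types and a changed amount of transcript per cell cannot be told apart.

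Of 12 smooth muscle and pericyte markers, 8 fell in OB (median -1.41) and 0 in non-OB (median -0.90), with 0 higher in either. Both *Cnn1*, a calponin of the contractile apparatus, and *Myh11*, smooth muscle myosin, fell in OB (-3.14, adjusted p = 0.00916, and -1.55, adjusted p = 0.0174, from limma). The mean of the 12 markers ranged from 10.50 to 10.80 in OB, from 11.01 to 11.23 in non-OB and from 11.92 to 12.17 in sham. For this mean sham 1 was the lowest of the sham lungs, and non-OB 3 was the highest of the grafts. Of 9 cardiac muscle markers, which in a mouse lung can come from the walls of pulmonary veins, 6 fell in OB (median -4.70) and 7 in non-OB (median -4.87). Their mean ranged from 7.57 to 9.12 in OB, from 7.34 to 8.56 in non-OB and from 11.56 to 13.28 in sham, with sham 1 the lowest of the sham lungs. Platelet markers fell for 5 of 7 in OB and 1 of 7 in non-OB, alveolar type 1 markers for 6 of 9 and 2 of 9, fibroblast markers for 3 of 15 and 0 of 15, airway epithelial markers for 2 of 12 and 0 of 12, and mesothelial markers for 1 of 7 and 0 of 7. No marker of these lists passed the test as higher. At an unadjusted p under 0.05 from limma, 1 fibroblast marker was higher and 6 were lower in OB. Of the airway epithelial markers, 1 was higher and 7 were lower. Of all 56601 probes, 4839 were higher and 6351 lower in OB against sham at this threshold, and 5175 and 4516 in non-OB. The medians in OB and non-OB were -2.15 and -1.48 for platelet, -1.20 and -0.91 for alveolar type 1, -0.42 and -0.60 for fibroblast, -1.24 and -1.31 for airway epithelial and -1.16 and -0.70 for mesothelial markers, so fibroblast and airway medians were no higher in non-OB than in OB. Of 11 alveolar type 2 markers, 0 passed the test by limma in either comparison (medians -0.03 and 0.09), and at an unadjusted p under 0.05, 1 was lower in OB and 0 differed in non-OB. T cell markers rose for 12 of 13 in OB (median 2.17) and 8 of 13 in non-OB (median 1.73), and macrophage and monocyte markers for 5 of 15 and 3 of 15, with 0 lower in either list. The part of these cell types in the differences of *Smad6*, *Smad7* and *Tgfbr3* was not tested.

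**Figure D4:**
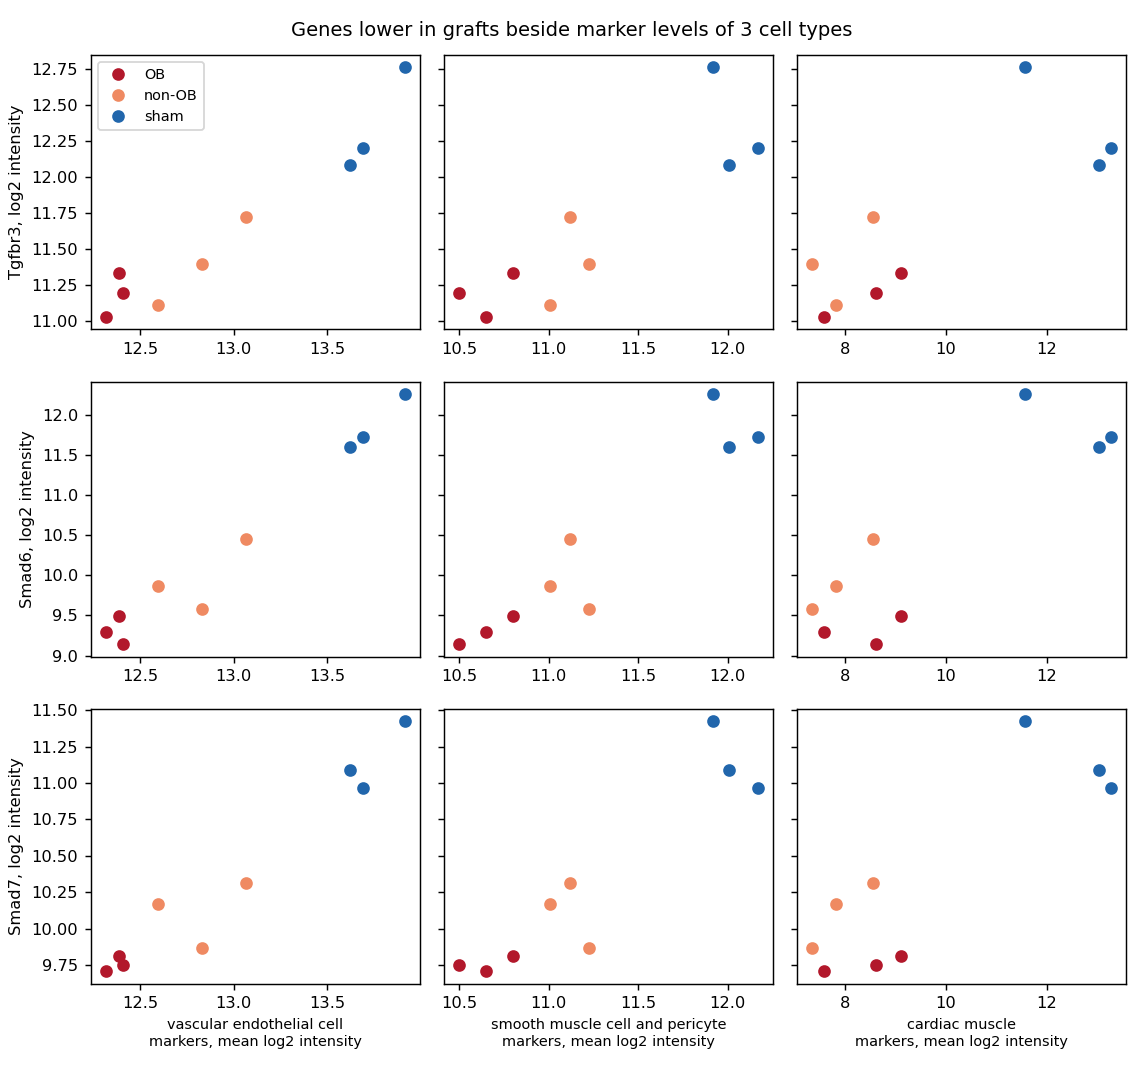
Log2 intensity of *Tgfbr3*, *Smad6* and *Smad7* (vertical axes) against the mean log2 intensity of vascular endothelial, smooth muscle and pericyte, and cardiac muscle markers (horizontal axes) on the 9 arrays, 1 point per lung, coloured by group. The sham lungs lie apart from the grafts on every axis. Of the cardiac muscle markers, 6 of 9 were well above background on all 9 arrays. For endothelial markers the non-OB grafts (12.60 to 13.07) lie between OB (12.32 to 12.41) and sham (13.62 to 13.92), and for cardiac muscle markers the graft groups overlap (7.57 to 9.12 and 7.34 to 8.56).

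The profiles most like each of the 3 genes were found among 14745 genes well above background on all 9 arrays, by the root mean square difference of log2 values centred on each gene's own mean. For *Smad6*, whose own spread by the same measure was 1.12, the nearest were *Aard* (0.19), *Prrt4* (0.21) and *Efnb2* (0.23). The mean level in OB, non-OB and sham was 6.67, 7.48 and 9.27 for *Aard* and 5.89, 6.48 and 8.33 for *Prrt4*. For *Efnb2* it was 11.35, 11.82 and 13.44. For *Smad7*, with a spread of 0.62, the nearest were *She* (0.078), *Pmp22* (0.095) and *Ntn1* (0.106). For *Tgfbr3*, with a spread of 0.56, they were *Inafm2* (0.115), *Slc23a2* (0.120) and *Plcl1* (0.123). *Tgfbr3* and *Smad7* differed from each other by 0.20, whereas *Smad6*, which spread more, differed from them by 0.60 and 0.51. The measure describes these 9 lungs, in which the 3 groups set most of each profile.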

How the data were processed

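Gene expression was measured in left lung tissue of 3 OB, 3 non-OB and 3 sham mice, 1 array each. The authors subtracted the background with Feature Extraction 12.0.3.1, which also corrects for position on the array, and deposited the processed intensity of every spot. They also deposited a table of intensities scaled to a trimmed mean (2% at each end) of 2500. The same scaling applied here (factors 1.24 to 2.05) gave their values within a relative difference of 5e-10.

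Control spots and the 53 to 111 spots per array marked as outliers were left out, log2 values of the 300 repeated probes were averaged, and 4 probes without an unmarked spot were dropped. Probes were named through their accession in RefSeq's GRCm38.p6 table (32991 probes). No array coordinates are given, because the array design used a different build. A gene was read by its probe of highest mean log2 intensity. Genes named in the text are the 9 genes themselves, up to 4 genes past the test with the largest change in each list and comparison, for marker lists also the first 3 genes of the list, the 3 most similar profiles, and *Tlr4*. The members and all lists were chosen with earlier results of these data known.

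The test was limma 3.58.1 in R 4.3.3 (1 mean per group, all 9 arrays, eBayes, Benjamini-Hochberg over 56601 probes), checked on simulated data. The alternatives were other scalings, normexp (offset 50, on the median signal, since no mean signal was used), the deposited table, a filter on dim probes, a trended spread, a minimum change of 2-fold, the methods' t-test, fewer groups, the replicate number and the slide as blocks, sham 1 alone, and each array left out. Each array is 1 mouse, and 3 mice a group limit the precision. Tables of the authors' own comparisons were not used.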

Additional observations from a re-analysis of the deposited data

How the results depend on the processing

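In OB against sham, the count of lower probes among the 14 was 4. It was 3 with 75th percentile scaling, 2 with the methods' t-test after Benjamini-Hochberg adjustment, with the 2 groups alone in the fit and with the replicate block, and 0 with slide as a fixed block and with sham 1 as the only control. It was 2 to 4 when 1 array was left out, and 2 without sham 1. The count of higher probes was 0, and 1 with quantile normalization, with dim probes left out and with a trended spread, and 2 with normexp and quantile normalization. In non-OB against sham the count of lower probes was 2. It was 3 with dim probes left out and with a trended spread, 1 with 75th percentile scaling, with quantile normalization and with the replicate block, 0 with the methods' t-test after adjustment, with the 2 groups alone, with slide as a fixed block and with sham 1 as the only control, and 0 to 2 when 1 array was left out (0 without any 1 of the sham lungs or without non-OB 1). Over all 56601 probes the lower count also fell, from 1743 in OB and 464 in non-OB to 0 in both with slide as a fixed block. With the methods' t-test after adjustment it was 935 in OB and 0 in non-OB, and with the 2 groups alone 1383 and 194. With 1 array left out it was 357 to 1710 in OB and 29 to 424 in non-OB. The causes were not tested. In deviations from the group mean, samples of the same number in different groups correlated between -0.40 and 0.28, and samples of different number between -0.45 and 0.45. Samples on the same slide correlated between 0.09 and 0.45. Slide is thus mixed into these values, which cannot decide whether the animals were paired. Quantile normalization moved the median change of all probes from 0.13 to -0.02 in non-OB against sham.

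*Smad6* and *Smad7* kept their sign in all alternatives of all 3 comparisons, and over all 9 genes 579 of the alternative values kept sign and call, 40 lost and 7 gained the call, and 31 changed sign. *Tgfb3* against sham turned to -0.15 in OB and -0.16 in non-OB with slide as a fixed block, to -0.034 and -0.044 with slide as a random block, and to -0.50 in OB within slide 1, and ranged from -0.32 to 0.56 in OB and from -0.077 to 0.32 in non-OB with 1 array left out. *Smad3* turned to 0.12 and 0.20 with sham 1 alone, and in non-OB to 0.00094 with quantile normalization and 0.0034 with normexp before it, with ranges of -0.32 to 0.050 in OB and -0.24 to 0.0041 in non-OB with 1 array left out. Between OB and non-OB the sign turned within slide 1 for *Tgfb1* (-0.072), *Tgfb3* (-0.69), *Tgfbr1* (-0.089) and *Tgfbr3* (0.22), within slide 2 for *Tgfb2* (0.96), *Tgfbr2* (0.20) and *Smad3* (0.11), and within slide 3 for *Tgfb3* (-0.13) and *Smad3* (0.024). With 1 array left out these values ranged from -0.026 to 0.21 for *Tgfb1*, -0.51 to 0.14 for *Tgfb2*, -0.45 to 0.42 for *Tgfb3*, -0.18 to 0.10 for *Tgfbr2* and -0.23 to 0.14 for *Smad3*.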

Other observations

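Beside the genes that passed the test, *Grem1*, an antagonist of BMPs, had the largest spread of its list in OB. The mean log2 intensity of *Grem1* was 7.86 ± 2.24 in OB, 5.97 ± 0.51 in non-OB and 5.66 ± 0.46 in sham (SD, n = 3), and its change of 2.20 in OB against sham had an adjusted p of 0.254 from limma. *Ltbp2*, a latent TGF-beta binding protein, was 15.02 ± 0.69 in OB, 14.58 ± 0.39 in non-OB and 13.70 ± 0.12 in sham (adjusted p = 0.0720 for OB and 0.261 for non-OB). The inhibitors of differentiation *Id1* and *Id2*, both targets of the family, had changes of -1.52 and 0.76 in OB against sham (adjusted p = 0.0776 and 0.0770). These genes lie outside the naming rule and were chosen after their values were seen.

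Sham 1 differed from the other sham lungs by 0.60 for *Smad6*, 0.62 for *Tgfbr3* and 0.40 for *Smad7* on the log2 scale, and by 0.71 for the second probe of *Smad7* (unadjusted p = 0.0487). By limma over all probes, each of the 14 probes had an adjusted p of 1.00.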
